A study of Mus musculus with 34 samples.

Results

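PPARγ and 8 genes of lipid uptake, storage and oxidation were examined for the binding of PPARγ, of the AP-1 family and of PU.1 and CEBPα in mouse macrophages. The genes were Pparg itself, Cd36, Fabp4, Angptl4, Plin2, Lpl, Pdk4, Cpt1a and Acadl. Every ChIP-seq peak with its midpoint in the body of 1 of these 9 genes, or within 20 kb on either side, was taken from all 30 peak lists of the series. That gave 1051 of 596383 peaks (0.176%), which joined into 148 of 93024 loci (0.159%) once peaks sharing 1 bp or more had been joined. The genes are those of GENCODE on mm10.

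The cells were thioglycollate elicited macrophages (TGEMs), which are recruited to the mouse peritoneum by an injection of thioglycollate and flushed out afterwards. All mice were male. Wild-type TGEMs came from C57Bl/6EiJ and Balb/cJ mice of 8 weeks and were treated for 1 h with PBS (Veh) or with 100 ng/mL of KLA, a lipid A that activates TLR4. TGEMs labelled PPARgKO, on C57Bl6 according to their titles, were given Veh alone, and how the deletion was made and the age of those mice are not stated in the sources used here. C57Bl/6EiJ lists covered the AP-1 monomers ATF3, Jun, JunD, Fos, Fra2 (the product of Fosl2) and JunB, as well as PU.1 and CEBPα, with Veh and with KLA. PPARγ had 1 list, in C57Bl/6EiJ with Veh. Balb/cJ lists covered the same monomers apart from Fra2, and PPARgKO lists covered ATF3, Jun and JunD. PPARγ was not immunoprecipitated from PPARgKO cells in the files used here, so the knockout label could not be checked by its target.

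PPARγ is a nuclear receptor that binds DNA as a dimer with RXR and is activated by fatty acids and their derivatives. It is best known as the driver of fat cell formation, and in macrophages it is linked to lipid uptake and storage. AP-1 monomers bind as dimers to the TRE, a short motif written TGAGTCA or TGACTCA. PU.1 and CEBPα are lineage factors of myeloid cells that occupy many macrophage enhancers.

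Each condition had a single list, in which the replicate experiments had been combined, so no difference below could be set against a spread between replicates (no replicates) and no test was run. The value of a peak is its read count, which was not scaled to library size. Binding strength is therefore given as the count with its rank by count within its own list, rank 1 being the strongest, and "top 5%" means that the peak was among the strongest 5% of its list. Distances in kb are from the start site of the gene, with negative values upstream. Over the 28 lists with at least 100 peaks, lists held 463 to 41573 peaks, and their counts summed to between 9196 and 13809143. The Balb/cJ Veh lists of Fos and JunB held 0 and 9 peaks. A peak was called lost or gained when no peak of the other list overlapped it, and the shares of member peaks are given with 95% Wilson intervals, which cover counting error only.

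The DNA of 4 PPARγ peaks is shown first, 3 because their best match to the PPARγ site was the closest among the strongest peaks of the genes (Plin2, Cd36 and Pdk4) and that of Cpt1a because it had the highest count. The match is a description, and whether PPARγ binds through it was not tested. The capitals mark the best match in the peak to the site that PPARγ and RXR bind, a direct repeat of 2 AGGTCA hexamers 1 base apart, read 5′ to 3′ on the strand of the match. The Plin2 site was chr4:86671951-86672043 (minus strand), the Cd36 site chr5:17835907-17835999 (plus strand), the Pdk4 site chr6:5509787-5509879 (plus strand) and the Cpt1a site chr19:3325491-3325519 (minus strand). Only 29 bases are printed at Cpt1a because RefSeq places a predicted exon there. The sequences are those of RefSeq GRCm38.p6.
Plin2 −1.9 kb, 2 mismatches: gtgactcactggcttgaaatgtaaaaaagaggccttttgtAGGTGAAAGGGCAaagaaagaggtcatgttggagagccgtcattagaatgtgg
Cd36 +52.8 kb, 2 mismatches: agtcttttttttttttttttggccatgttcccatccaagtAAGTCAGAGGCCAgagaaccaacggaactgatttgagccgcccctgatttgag
Pdk4 −13.6 kb, 2 mismatches: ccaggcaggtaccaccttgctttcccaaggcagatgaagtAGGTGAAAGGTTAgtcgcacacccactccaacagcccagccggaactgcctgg
Cpt1a +3.2 kb, 3 mismatches: agaaaagtAGGGGAAAGGTTAcgggtgcc

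The repeat was searched on both strands over the whole peak, whose median width was 236 bp for the member peaks. None of the 72 PPARγ peaks at the 9 genes held it without a mismatch, against 0.229% of the list. With up to 2 mismatches it was found in 4 of the 72 peaks (5.56%), against 7.55% of the list. A single AGGTCA hexamer was found in 11 peaks (15.3%) against 21.8%, and a TRE in 12 (16.7%) against 17.3%. The member peaks were thus close to the whole PPARγ list for the TRE. For the hexamer their share was lower, but the list-wide 21.8% lay inside their interval (8.75% to 25.3%). Of all PU.1 Veh peaks without PPARγ, 2.37% held the repeat with up to 2 mismatches, 12.3% the hexamer and 6.64% a TRE. Peak width was not matched. With up to 2 mismatches, the repeat was in 19.7% of the strongest 5% of the PPARγ list and in 6.9% of the rest. For the members it was in 2 of 15 peaks and in 2 of 57. Several of the strongest peaks had no close match, since the best repeat in the Angptl4 peak at +2.4 kb and in the Lpl peak at +34.2 kb had 4 mismatches.

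All 9 genes had a PPARγ peak in their window, as did 62.1% of the 21951 protein-coding genes of GENCODE, so the presence of a peak says little about these genes. By strength, 7 of the 9, all but Pparg and Pdk4, had a PPARγ peak in the strongest 5% of the list, against 7.86% of all genes. At the level of peaks, 15 of the 72 (20.8%, interval 13.1% to 31.6%) were in the strongest 5%, a class that holds 5.05% of the list because of ties. The median count was 49 for the member peaks and 36 for the list. The genes were chosen as known PPARγ targets and their windows differ in length. Of the 72 peaks, 35 lay in introns, 28 between genes, 5 in UTRs and 4 in other exons. Counted across these classes, 9 lay within 1 kb of the start site. For 20 of them the nearest start site of a protein-coding gene was that of a neighbour, such as Tesmin for the 3′ end of Cpt1a.

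**Figure D1:**
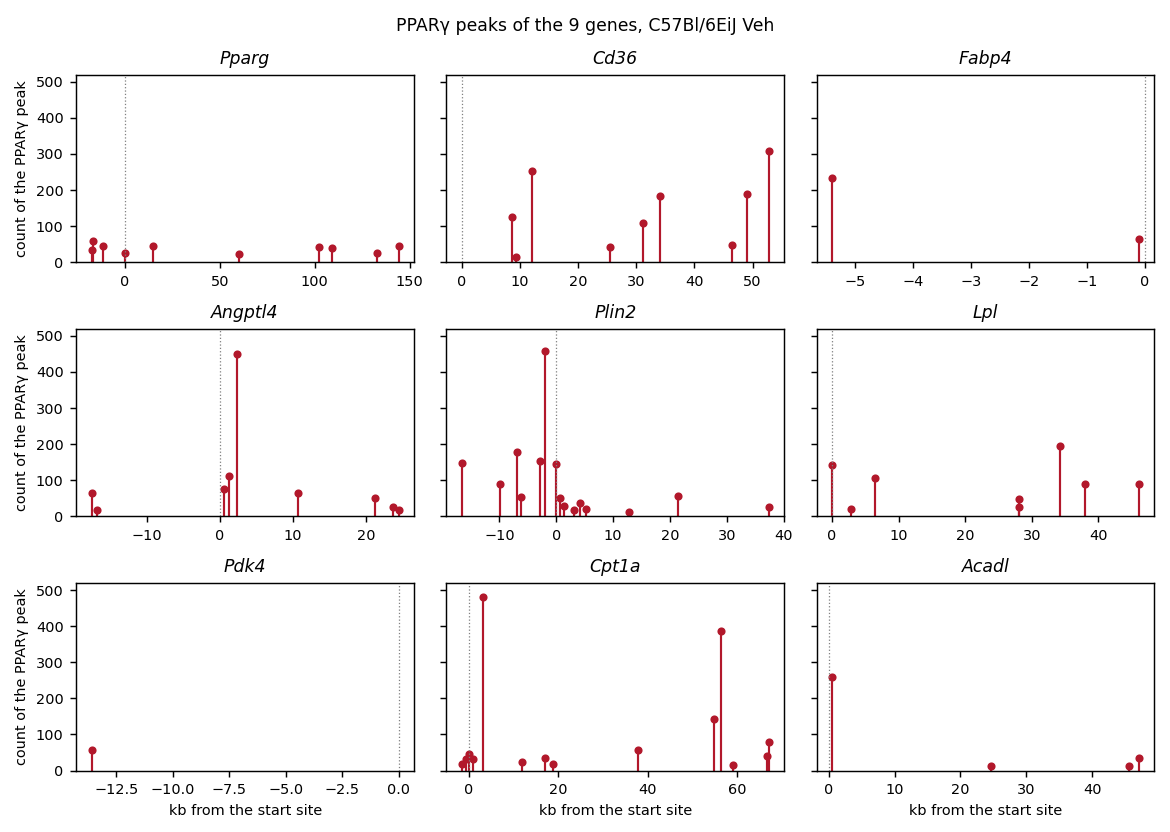
Counts of every PPARγ peak (C57Bl/6EiJ, Veh, 1 list) by distance of its locus from the start site of the gene, 1 panel per gene; the dotted line is the start site and positive distances lie downstream. The tallest peaks are at Cpt1a (482), Plin2 (457) and Angptl4 (449), while no peak at Pparg is above 60.

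Cd36 (chr5:17781690-17888801, minus strand), the scavenger receptor that takes up oxidised lipoproteins and long-chain fatty acids, had 9 PPARγ peaks with counts from 16 to 308 and a median of 125. The strongest (count 308, rank 231 of 31089) lay at chr5:17835746-17835998, 52.8 kb into the gene. That is 155 bases upstream of the start of a shorter Cd36 transcript in GENCODE, and the AAGTCAGAGGCCA site printed above falls in it. It carried modest AP-1 peaks of Jun (count 25, top 49.9%) and JunD (count 56, top 40.4%) and a PU.1 peak (count 541, top 15.7%), with no ATF3 peak in C57Bl/6EiJ. PPARγ was also strong at +12.0 kb (count 253), +49.0 kb (188) and +34.1 kb (183).

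The AP-1 monomers were strongest at other places in Cd36. At +8.7 kb with Veh, Jun ranked 264 of 15548 (count 77, top 1.7%), ATF3 497 of 23160 (count 211, top 2.15%) and JunD 1700 of 19653 (count 106, top 8.65%), next to a PPARγ peak of 125. At +49.0 kb, ATF3, Jun and JunD were all in the top 5% (2.89%, 4.78% and 2.98%) and PU.1 had a count of 1157, in the top 0.337% of its list. Cd36 therefore held loci with PPARγ, AP-1, PU.1 and CEBPα together, and +8.7, +34.1 and +49.0 kb were the 3 at which all of ATF3, Jun and JunD were also found in PPARgKO cells. The strongest Jun peak of a gene held a TRE at Cd36, Plin2, Cpt1a, Pparg and Fabp4, and none at Angptl4, Lpl and Acadl. In PPARgKO cells, Jun was found at those of Cd36, Plin2 and Cpt1a. It was not found at those of Pparg (rank 863) and Fabp4 (rank 1680), despite their TRE, nor at the other 3. The TREs of Cd36 and Plin2 are printed in capitals, since Jun was found at both in PPARgKO cells too. Their lines are chr5:17880082-17880168 and chr4:86686705-86686791 on the plus strand.
Cd36 +8.7 kb: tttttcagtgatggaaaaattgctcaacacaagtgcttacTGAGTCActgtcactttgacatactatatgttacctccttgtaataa
Plin2 −16.6 kb: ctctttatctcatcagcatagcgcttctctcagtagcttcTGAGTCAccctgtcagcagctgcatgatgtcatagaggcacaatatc

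Lpl (chr8:68880491-68907448, plus strand), the lipase that releases fatty acids from circulating triglycerides, had 8 PPARγ peaks in 7 loci, with counts from 20 to 195. The strongest lay 34.2 kb downstream of the start site, beyond the 3′ end (rank 808, with a PU.1 peak of 813 in the top 4.52%), and the next at the start site itself (count 143). With Veh, the AP-1 peaks of Lpl were weak, the highest rank being that of Jun at +34.2 kb (count 30, top 36.6%).

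Fabp4 (chr3:10204088-10208576, minus strand), a fatty acid carrier of fat cells and macrophages, had 2 PPARγ peaks. The one at −5.4 kb was strong (count 234, rank 518) and had no Veh peak of ATF3, Jun or JunD in C57Bl/6EiJ, where only Fra2 (count 19, top 80.2%) was found. The one at the start site was weaker (count 64, rank 6752), and there Jun (count 49, top 10.8%), JunD (65, top 30.4%) and ATF3 (68, top 37.6%) were all present.

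Plin2 (chr4:86648386-86670060, minus strand) codes for a protein that coats lipid droplets, and it had the most PPARγ peaks (15), with counts from 13 to 457. The 5 regions in the top 5%, all upstream of or at the start site, at −16.6, −6.9, −2.9, −1.9 and 0.0 kb, held counts of 149, 178, 153, 457 and 146. The peak at −1.9 kb (chr4:86671886-86672105, between genes) ranked 33 of 31089. It was shared with Jun (count 50, top 10.1%), JunD (94, top 12.4%), ATF3 (111, top 15.9%) and PU.1 (480, top 19.9%), and the line printed above holds a TRE (tgactca, near its start) as well as the repeat match. CEBPα had a single Veh peak in the Plin2 window, at +21.5 kb (count 51).

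Angptl4 (chr17:33773750-33781830, minus strand), a secreted inhibitor of lipoprotein lipase, had 9 PPARγ peaks with counts from 17 to 449. The strongest, at chr17:33779314-33779539 in an intron 2.4 kb into the gene, ranked 39 and was shared with JunD alone among the Veh AP-1 lists (count 50, top 49.3%). Angptl4 was without a CEBPα peak with Veh, and its only Jun peak lay at −17.6 kb (count 31, top 34.5%), nearest to the start of Kank3.

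Of the genes of fatty acid oxidation, Cpt1a (chr19:3322334-3385733, plus strand), which codes for the enzyme that commits fatty acids to import into mitochondria, had the strongest PPARγ peak of all 9 genes. It lay at chr19:3325416-3325620 in an intron 3.2 kb into the gene (count 482, rank 22). A second, at +56.4 kb, had a count of 387 (rank 97), and the other 12 peaks of the gene had counts of 15 to 143. AP-1 was weak at +3.2 kb, with ATF3 at 32 (top 88.6%) and JunD at 45 (top 58.4%) and no Jun peak. CEBPα was strong near the second site, at +54.8 kb (count 256, top 1.61%), where Jun, JunD, ATF3 and a PPARγ peak of 143 were found too. Acadl (chr1:66830839-66863277, minus strand), a long-chain acyl-CoA dehydrogenase, had 4 PPARγ peaks, and the one 0.5 kb into the gene, in an intron (count 258, rank 407) had no peak of any other factor in C57Bl/6EiJ or PPARgKO cells (Balb/cJ had a JunD peak of 28 with KLA). Pdk4 (chr6:5483351-5496309, minus strand), the kinase that switches off pyruvate dehydrogenase, had 1 peak in all 30 lists, that of PPARγ at −13.6 kb (count 58, rank 7890).

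Pparg itself (chr6:115360951-115490399, plus strand) was bound by PPARγ at many places and weakly. Its window, the longest, held 30 loci and 10 PPARγ peaks with counts of 23 to 60, of which the best ranked 7484. AP-1 bound it more strongly than PPARγ did by rank. ATF3 at +63.7 kb had a count of 193 (top 3.21%), next to CEBPα at 173 (top 8.85%) and with no PPARγ peak, and JunD and Jun at +102.1 kb had counts of 130 (top 4.1%) and 60 (top 5.55%).

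**Figure D2:**
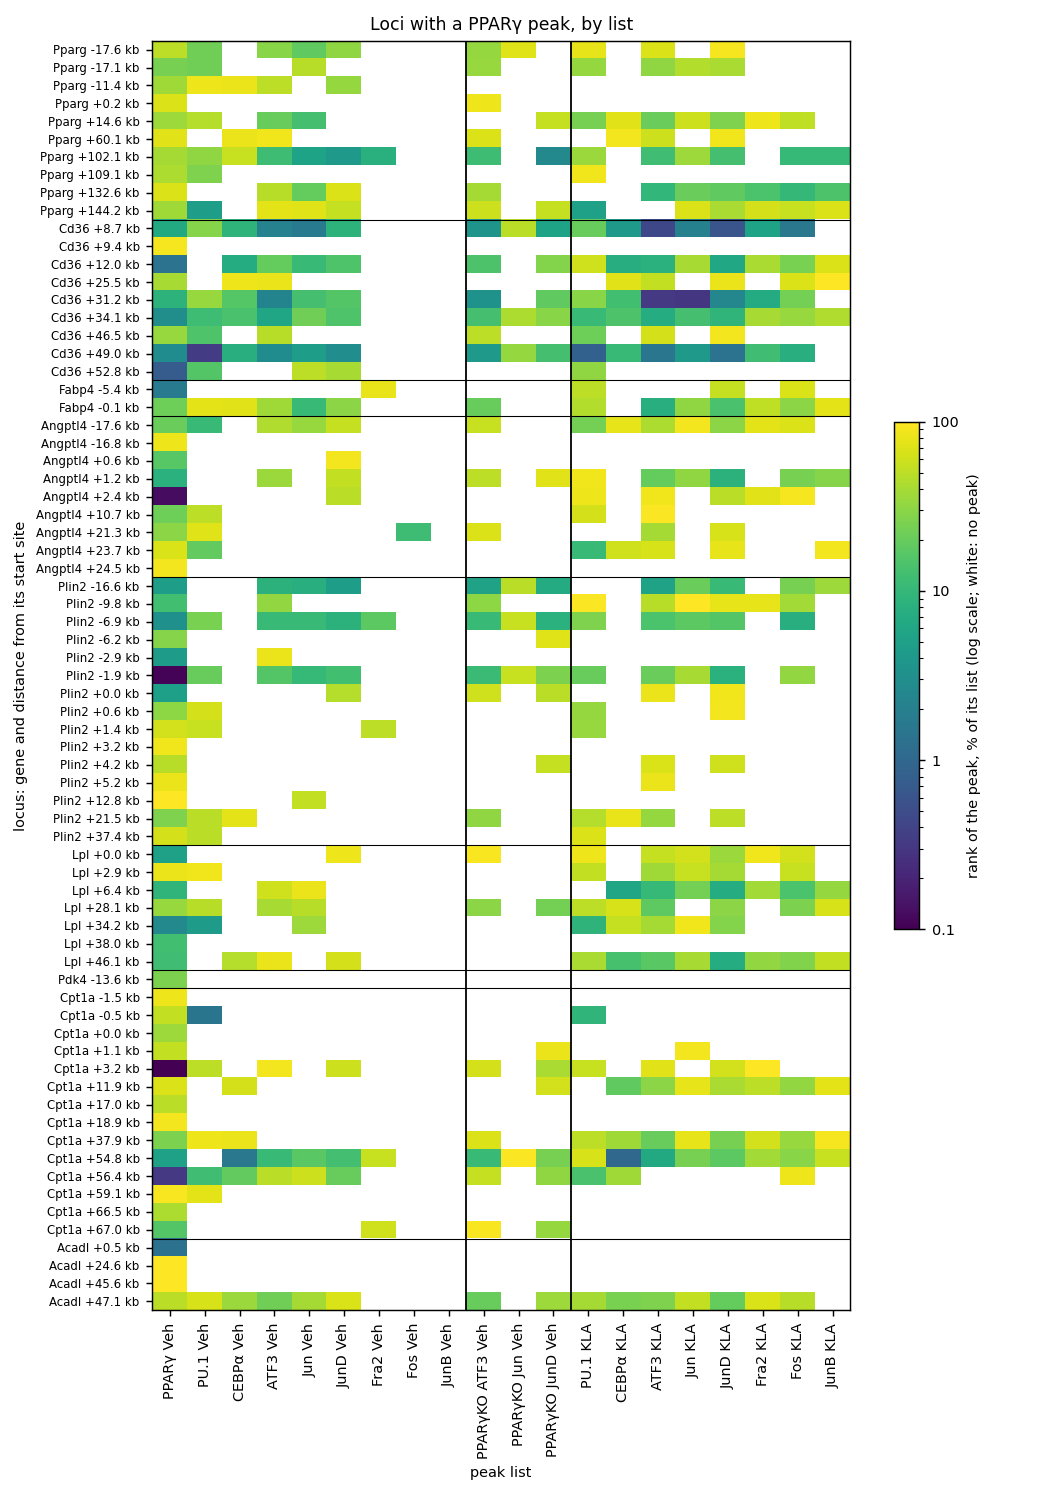
Loci with a PPARγ peak (71 rows, named by gene and distance from its start site) in 20 lists of C57Bl/6EiJ and PPARgKO cells, coloured by the rank of the strongest peak as a percentage of its list on a log scale, with dark for strong, white for no peak and ranks under 0.1% drawn at 0.1%. Rows of Cd36 such as +49.0 kb are filled in most columns, while Pdk4 −13.6 kb and Acadl +0.5 kb are filled for PPARγ alone, and the PPARgKO Jun column is filled in 8 rows.

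PPARγ and AP-1 met at many of these loci, at rates near those of the lists. A PPARγ peak overlapped 24 of 31 Jun peaks (77.4%, against 65.8% of the Jun Veh list), 26 of 33 JunD peaks (78.8% against 69.2%) and 28 of 41 ATF3 peaks (68.3% against 60.4%). It overlapped 31 of 61 PU.1 peaks (50.8% against 38.5%) and 16 of 23 CEBPα peaks (69.6% against 56.7%). Only the list-wide share of PU.1 fell just under the interval of the members (38.6% to 62.9%). In the other direction, 36 of the 72 PPARγ peaks (50.0%) overlapped ATF3, Jun or JunD, against 55.4% of the PPARγ list, 31 (43.1%) overlapped PU.1, against 51.3%, and 16 (22.2%) overlapped CEBPα, against 23.5%. Of the 71 loci with PPARγ, 30 had no Veh peak of any AP-1 monomer, a count that was not made for the whole series.

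The PPARgKO lists ask which AP-1 binding at these genes was found without PPARγ. Jun peaks were found at far fewer places: of 31 in C57Bl/6EiJ, 23 had no overlapping Jun peak in PPARgKO cells (74.2%, interval 56.8% to 86.3%). The same held for the whole list, of which 78.2% was lost, and the knockout Jun list was short, at 4290 peaks against 15548. Jun loci fell from 11 to 1 at Pparg, from 6 to 3 at Cd36, from 5 to 3 at Plin2, from 3 to 1 at Cpt1a, from 3 to 0 at Lpl and from 1 to 0 at each of Fabp4, Angptl4 and Acadl. Pparg, with 10 of the 23 lost loci, is itself the gene knocked out, and which of its DNA was removed is not stated. Lost binding and removed DNA cannot be told apart in its window. All 8 Jun peaks of the knockout lay where the wild type also had one. Of the knockout list 21.0% did not, a share inside the interval of the members (0% to 32.4%).

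List length mattered here. When the wild-type list was cut to its strongest 4290 peaks, 14 member peaks were left, of which 6 were lost (42.9%), against 47.3% of the list. The Jun peaks that were kept had been stronger, with a median rank in the top 10.5% in C57Bl/6EiJ against the top 47.0% for those lost, and the list as a whole split the same way (17.3% against 56.4%). Some strong peaks were nevertheless not found. Jun at Pparg +102.1 kb (count 60, rank 863), at Cd36 +12.0 kb and at the Fabp4 start site (both 49, rank 1680), and at Cd36 +31.2 kb and Pparg +14.6 kb (both 46, rank 2037) had no knockout peak.

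Jun was kept at Cd36 +8.7, +34.1 and +49.0 kb, at Plin2 −16.6, −6.9 and −1.9 kb, at Cpt1a +54.8 kb and at Pparg −17.6 kb. Its counts at Cd36 +8.7 kb were 77 in C57Bl/6EiJ and 18 in PPARgKO, which ranked 264 and 2092. At Plin2 −1.9 kb the counts were 50 and 17 and the ranks 1574 and 2404. In 7 of the 8 loci the rank number was higher in the knockout, that is weaker, and Cd36 +34.1 kb was the exception (3438 and 1848). Among all kept Jun peaks with a C57Bl/6EiJ rank of 4290 or better, 38.6% had a weaker rank. The knockout list ends at 4290 peaks, so a peak that starts high has more room to fall than one near that end. Starting ranks were not matched, so the 7 of 8 cannot be weighed against the 38.6%. The median rank of the 8 was 1627 in C57Bl/6EiJ and 2248 in PPARgKO.

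For ATF3 and JunD, the whole lists gave smaller losses. Of the ATF3 peaks, 13 of 41 were lost (31.7%, interval 19.6% to 47.0%), against 21.8% of the list, and of the JunD peaks 15 of 33 (45.5%), against 46.5%. In lists of equal length, ATF3 lost 34.1% of its member peaks (24.8% of the list) and JunD 45.5% (46.1%), beside 42.9% for Jun. That setting kept the strongest 4290 of 15548 Jun peaks but 19355 of 19653 JunD peaks. Jun and JunD were thus not compared at like strength. With the strongest 50% of each list, 90.5% of member peaks were lost for Jun, 38.9% for JunD and 29.2% for ATF3. The knockout Jun list stayed the shorter one there. New peaks were seen as well, 15 of 42 for ATF3 in the knockout (35.7%, against 36.1%) and 11 of 29 for JunD (37.9%, against 45.7%). At the 23 loci that lost Jun, the knockout had ATF3 at 13, of which 11 had it in C57Bl/6EiJ too, and JunD at 11, of which 8 had it in C57Bl/6EiJ too, with neither at 7. The 8 loci that kept Jun all had an ATF3 peak in the knockout, and 7 of them a JunD peak. The same counts were not made over all lost and kept Jun peaks. Whether they are particular to these genes is therefore not known. Individual loci differed. At Cd36 +31.2 kb, ATF3 ranked in the top 2.25% of the wild-type list (count 209) and in the top 3.42% of the knockout list (113), and JunD in the top 15.6% (87) and 18.5% (66), while Jun went from a count of 46 to no peak. At the Fabp4 start site, ATF3 was kept (counts 68 and 55) and JunD and Jun were not found. At Lpl +34.2 kb with Veh, C57Bl/6EiJ had Jun alone and the knockout none of the 3. Balb/cJ cells had JunD (count 70, top 23.5%) and ATF3 (29, top 62.8%) there with Veh, and no Jun peak.

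**Figure D3:**
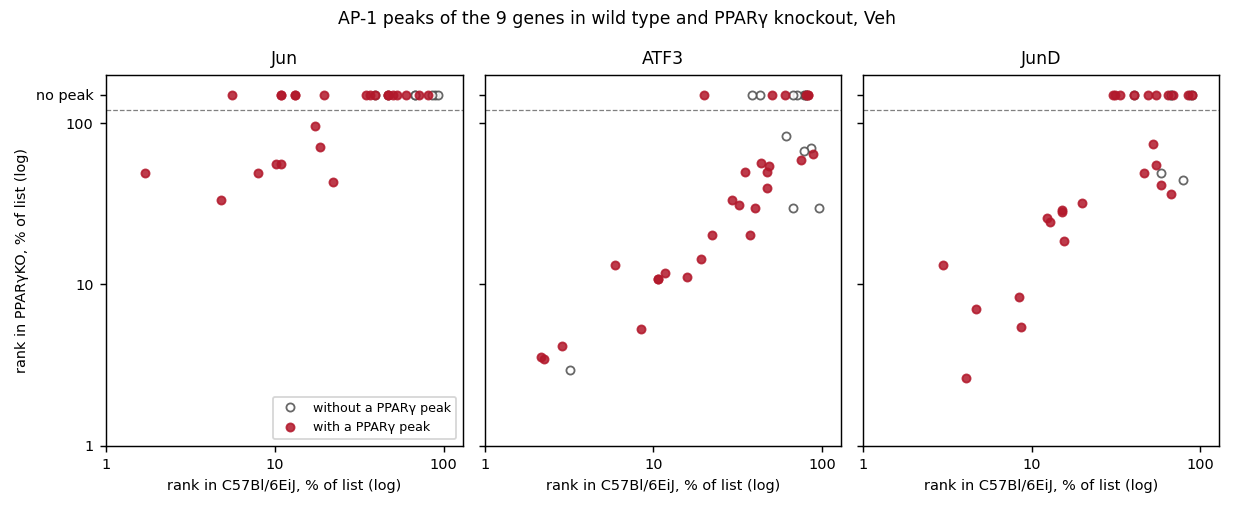
Rank of each Veh peak of Jun, ATF3 and JunD at the 9 genes in C57Bl/6EiJ (x axis, % of its list, log scale) against the rank of the overlapping PPARgKO peak (y axis, log scale), with peaks that had none drawn above the dashed line and filled points overlapping a PPARγ peak. For Jun 23 of 31 points lie above the line, for ATF3 13 of 41 and for JunD 15 of 33.

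Whether Jun was lost more where PPARγ binds was asked next. Of the 24 Jun peaks with a PPARγ peak, 16 were lost (66.7%), and of the 7 without one, all 7 were. The list showed the same order, with 71.4% and 91.2% lost. The share lost was not higher beside PPARγ, in the members or in the list. Peaks with PPARγ were also the stronger ones: in lists of equal length all 14 Jun peaks of the members overlapped PPARγ, which left no comparison among them, while the list lost 44.5% with PPARγ and 65.3% without. The TRE moved with these groups too. It was found in 5 of the 8 kept Jun peaks and in 4 of the 23 lost, against 49.5% and 29.4% of the kept and lost peaks of the list and 33.8% of all Jun Veh peaks, and its part in the loss was not tested.

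With KLA, AP-1 peaks were found at more loci of these genes. Of the 148 loci, 58 had an AP-1 peak with Veh and 73 with KLA in C57Bl/6EiJ. AP-1 was found only with KLA at 28 and only with Veh at 13. Loci were not counted in this way over the whole series, so these numbers have no list-wide share beside them. Fos and JunB, which had 2 Veh peaks each at these genes, had 41 and 18 with KLA, of which 40 (97.6%) and 18 (100%) had no Veh peak, against 95.5% and 98.2% of their lists. The same was so for 22 of 24 Fra2 peaks (91.7%, interval 74.2% to 97.7%, against 75.3%), 33 of 60 JunD peaks (55.0% against 51.6%), 32 of 64 ATF3 peaks (50.0% against 48.8%) and 13 of 33 Jun peaks (39.4% against 48.6%). Apart from Fra2, whose list-wide share lay just inside the interval of the members, these shares were near those of the lists, and each of the 6 AP-1 lists was longer with KLA. For PU.1 and CEBPα, 15 of 65 (23.1% against 24.7%) and 11 of 29 (37.9% against 39.4%) of the KLA peaks were absent with Veh.

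**Figure D4:**
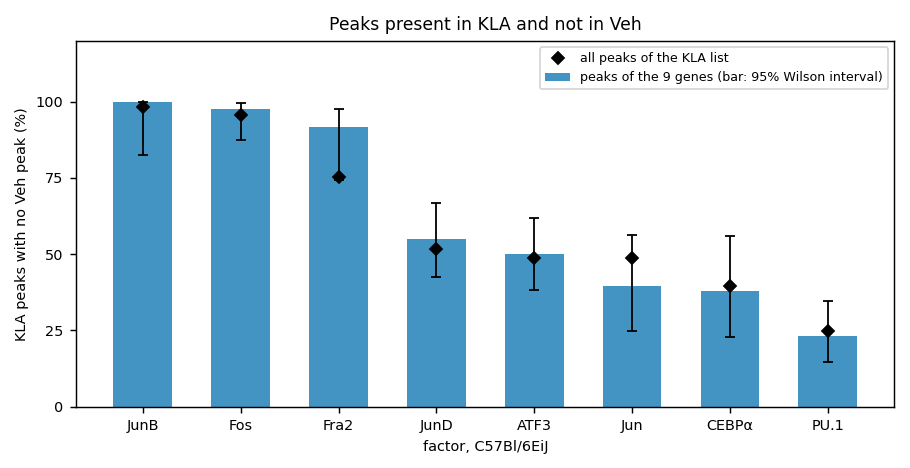
Share of the KLA peaks of each factor in C57Bl/6EiJ that overlap no Veh peak, for the 9 genes (columns, with 95% Wilson intervals that cover counting error only) and for all peaks of the list (diamonds). JunB, Fos and Fra2 stand above 90% for the 9 genes, JunD, ATF3, Jun and CEBPα lie between 37% and 55%, and PU.1 is lowest at 23.1%.

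Peaks were lost with KLA as well, 9 of 41 for ATF3 (22.0% against 18.9% of the Veh list), 11 of 31 for Jun (35.5% against 42.2%), 6 of 33 for JunD (18.2% against 22.2%), 7 of 9 for Fra2 (77.8% against 50.8%), 11 of 61 for PU.1 (18.0% against 26.4%) and 5 of 23 for CEBPα (21.7% against 30.4%). At the strong PPARγ sites, AP-1 did not rise uniformly. At Cd36 +52.8 kb in C57Bl/6EiJ, Jun and JunD were present with Veh and no AP-1 monomer with KLA. At Cpt1a +56.4 kb, Jun, JunD and ATF3 were present with Veh, and Fos (count 32, top 82.8%) alone with KLA, whereas Balb/cJ cells had ATF3 (28), JunD (43) and Fos (55) there with KLA. At Cpt1a +3.2 kb the KLA peaks of ATF3 (count 52, top 73.2%) and JunD (232, top 61.8%) were weak, as with Veh. Angptl4 +2.4 kb had JunD alone with Veh and 4 monomers with KLA, JunD (279, top 49.4%), Fra2 (35, top 74.3%), ATF3 (42, top 86.9%) and Fos (28, top 91.9%).

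The loci with the most monomers found only with KLA were these. At Cpt1a +11.9 and +37.9 kb all 6 monomers were found with KLA and none with Veh, beside PPARγ peaks of 25 and 58. At +37.9 kb the KLA counts were 135 for ATF3 (top 20.2%), 424 for JunD (top 24.5%), 64 for Fos (top 34.7%), 41 for Fra2, 22 for Jun and 19 for JunB. The JunB peak there overlapped no peak of PPARγ or of another monomer and joined the locus through PU.1 peaks. Both loci had weak ATF3 and JunD peaks in Balb/cJ cells with Veh (counts 23 to 37). PPARgKO cells with Veh had a JunD peak of 28 at +11.9 kb and an ATF3 peak of 21 at +37.9 kb. CEBPα at +11.9 kb had counts of 61 with Veh (top 63.9%) and 122 with KLA (top 18.5%). At Lpl +31.3 kb, which had no PPARγ peak, ATF3 (217, top 6.09%), Jun (52, top 14.5%), JunD (496, top 16.7%), Fos (66) and Fra2 (57) appeared with KLA, and PPARgKO cells had an ATF3 peak of 31 there with Veh. At Angptl4 −0.4 kb, just upstream of the start site and without PPARγ, Jun, ATF3, JunD, Fos and JunB appeared, with Fos in the top 34.0% and JunB in the top 33.6%. At Fabp4 −3.4 kb the additions were ATF3 (138, top 19.4%), Jun, JunD and Fos, and at Plin2 −9.8 kb, bound by ATF3 alone with Veh (75), they were Jun, JunD, Fos and Fra2 beside a PPARγ peak of 90. In Balb/cJ cells Jun and JunD were already present with Veh at both, with counts of 16 and 25 at Fabp4 −3.4 kb and of 28 and 61 at Plin2 −9.8 kb.

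By gene, AP-1 loci numbered 6 with Veh and 10 with KLA at Lpl and 4 and 8 at Fabp4, while Plin2 had 13 and 11. The Plin2 number with Veh includes loci of a single monomer from the short Veh lists. Those at −5.5 and +5.9 kb had JunB alone (a list of 463 peaks). Fra2 alone (5329 peaks) was found at +1.4, +1.9 and +16.0 kb, and no AP-1 peak was found at any of them with KLA. Numbers of loci by gene have no list-wide share either. At Lpl +6.4 kb, ATF3 had a Veh count of 48 (top 60.1%) and a KLA count of 183 (top 10.3%), Jun moved from the top 80.8% to the top 23.3%, JunD, Fos, Fra2 and JunB were found with KLA alone, and a CEBPα peak in the top 5.95% (count 181) had no counterpart with Veh. CEBPα peaks in the Lpl window numbered 1 with Veh and 5 with KLA. Other genes went both ways, with more at Cd36 (7 and 10) and Angptl4 (0 and 2) and fewer at Pparg (8 and 6) and Fabp4 (1 and 0). Plin2, Cpt1a, Acadl and Pdk4 did not change in number. At loci of Cd36 that were bound with Veh, ranks differed with KLA in both directions. Jun at +31.2 kb moved from the top 13.1% (rank 2037) to the top 0.297% (rank 52 of 17480), and ATF3 from the top 2.25% to the top 0.318%. At +8.7 kb, ATF3 moved from the top 2.15% to the top 0.444% and JunD from 8.65% to 0.613%, Jun went from the top 1.7% to the top 2.07%, and Fos (181, top 1.57%) and Fra2 (100, top 5.57%) were found with KLA alone. Weaker ranks with KLA were seen for Jun at +12.0 kb (top 10.8% to top 40.3%) and for ATF3 at +34.1 kb (5.96% to 7.27%) and +46.5 kb (47.1% to 63.4%). At Acadl +47.1 kb, in an intron of the neighbour Kansl1l, Fos and Fra2 joined ATF3, Jun and JunD, and Pdk4 stayed without an AP-1 peak.

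Balb/cJ cells, with 1 list per condition, shared part of these peaks, at rates near those of the lists. A Balb/cJ Veh peak overlapped 27 of 41 ATF3 peaks (65.9%, against 63.0% of the C57Bl/6EiJ list), 18 of 31 Jun peaks (58.1% against 48.6%) and 26 of 33 JunD peaks (78.8% against 75.7%). With KLA, 30 of 61 ATF3 peaks (49.2% against 57%), 10 of 22 Jun peaks (45.5% against 51.6%) and 22 of 59 JunD peaks (37.3% against 47.3%) had no Balb/cJ Veh peak. At Cd36 +8.7 kb with Veh, the Jun count was 77 in both strains (ranks 264 and 392). At Lpl +31.3 kb, ATF3, Jun, JunD, Fos and JunB were found in Balb/cJ with KLA, and with Veh JunD alone (count 28, top 73.3%). The Balb/cJ JunD Veh list, longer than that of C57Bl/6EiJ, had 16 peaks at Plin2 against 4.

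A wider list of 25 genes of the same pathway, made of RXR and PPAR partners, coregulators and enzymes of lipid storage and oxidation, had a PPARγ peak in 24 of 25 windows, all but Ppara (62.1% of all genes), and a peak in the strongest 5% in 10 (7.86% of all genes). Among them were Slc25a20 (count 387), the carrier that brings acylcarnitines into mitochondria, Pnpla2 (383), a triglyceride lipase, the adjacent Hadha and Hadhb (282, the same peak), which code for the mitochondrial trifunctional protein, Med1 (232), Dgat1 (225), Plin3 (170), Rxrb (164) and Acsl1 (161). Rxra, which codes for a partner of PPARγ, had a best count of 64 (rank 6752). At the level of peaks the difference was smaller, with 12 of 137 (8.76%) in the strongest 5%, against 5.05% of the list. The list-wide share lay just under the interval of these peaks (5.08% to 14.7%). Of the 47 Jun Veh peaks in these windows 37 were lost in PPARgKO cells (78.7%, against 78.2% of the list). ATF3 lost 21 of 64 (32.8%, interval 22.6% to 45.0%, against 21.8%) and JunD 27 of 62 (43.5% against 46.5%). Of the 137 PPARγ peaks, 57 overlapped ATF3, Jun or JunD (41.6%, interval 33.7% to 50.0%, against 55.4%). The list-wide shares of ATF3 and of this overlap lay outside those intervals.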

How the data were processed

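Thioglycollate elicited macrophages had been assayed by ChIP-seq. Following the authors' methods, reads were aligned with Bowtie2 to mm10 (Balb/cJ reads to a custom genome, with positions shifted back to mm10), peaks were called with HOMER against the input of the same treatment, and replicate experiments were reduced to 1 list per condition by removing peaks with an irreproducible discovery rate (IDR) of 0.05 or more. How the counts of replicates were joined is not given in the sources used here. The deposited lists hold read counts per peak, not scaled to library size by the authors, and a scaled IDR score (540 to 1000) that was used only for a stricter list. Counts from lists of different depth are therefore not comparable in size, and a longer list holds weaker peaks, so ranks were used.

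All 30 lists (34 samples, 4 of them inputs without a list) were read in Python 3.11.15 with pandas 2.3.3, numpy 2.4.6 and scipy 1.17.1. Samples were grouped by genotype or strain, factor and treatment from the labels. Peaks were assigned by midpoint to gene bodies plus 20 kb (GENCODE, mm10) and joined into loci at an overlap of at least 1 bp. With 1 list per condition there is no test, and shares have 95% Wilson intervals. Motifs were searched on both strands of RefSeq GRCm38. Genes were named for being members, loci for holding the strongest PPARγ peak, the highest AP-1 rank or the most monomers found only with KLA, and further loci were chosen after their values were seen. The members and gene lists were chosen with earlier results of these data known. The counting of overlaps was tested on simulated data. Alternatives were a stricter IDR (a score of at least 830), only the upper 50% of every list by count, pairs of lists cut to the same number of peaks, peak centres within 100 bp, other windows and a motif with mismatches. Some items are not reported here.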

Additional observations from a re-analysis of the deposited data

How the results depend on the processing

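Of 89 values recomputed under another setting, 72 were called the same and 17 moved. A share was called moved when it left the counting interval of the first value. Numbers of loci were judged by a fixed fold change instead. The number of loci fell from 148 to 85 with the strongest 50% of each list. The share of Jun peaks lost in PPARgKO cells (74.2%) was 88.0% with the stricter IDR, 90.5% with the strongest 50% and 42.9% in lists of equal length, and for Jun peaks with PPARγ (66.7%) it was 85.7%, 88.2% and 42.9%. The share found only with KLA became 100% for Fos (from 97.6%) with the stricter IDR, the strongest 50%, a 5 kb window and equal length (1 peak), and 100% for Fra2 (from 91.7%) with the stricter IDR and the strongest 50%. It became 56.5% for CEBPα (from 37.9%) with the stricter IDR, 23.5% for Jun (from 39.4%) with the strongest 50% and 37.2% for ATF3 (from 50.0%) in lists of equal length. The direct repeat went from 0 to 5.56% of PPARγ peaks when up to 2 mismatches were allowed. Equal length leaves fewer peaks in the longer list by construction, and otherwise the cause was not tested.

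In lists of equal length no member Jun peak lacked PPARγ and no JunB KLA peak was left, so those shares have no value. No replicate was available to be left out. No paired analysis was possible because each condition had 1 list and no test was run. A site under the threshold of 1 list is listed there as no peak, so a missing peak is not shown to be absence of binding.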
